A study of Mus musculus with 10 samples.

Results

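The genes described here are the chromatin remodelers and histone methylation enzymes named Smarc, Arid, Chd, Kmt or Kdm. They were chosen by name: each symbol starts with Smarc, or with Arid, Chd, Kmt or Kdm followed by a digit, 2 names were left out by the rule, 2 pseudogenes were dropped, and at least 1 count in any library was asked for. This gave 55 of the 19014 genes with any count: 12 Smarc, 9 Arid, 10 Chd, 8 Kmt and 16 Kdm genes. A further 4 matching names, Smarca1, Arid3c, Kdm4dl and Kdm6bos, were listed at 0 in every library.

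The cells were group 2 innate lymphoid cells (ILC2), lymphocytes without antigen receptors that make type 2 cytokines, sorted from lungs of C57BL/6 mice after papain, a protease that inflames the airways. The genotypes compared were WT (n = 5 libraries) and c-Maf KO (n = 5 libraries), from littermates kept together. c-Maf is a basic leucine zipper transcription factor. The labels do not say which cells lacked c-Maf, how the gene was deleted, or the age and sex of the mice, and the sort took lineage-negative CD90.2+ cells with or without ST2 and KLRG1. The comparison asks how transcripts of these chromatin genes differ when c-Maf is missing.

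DNA is packed around histones, and remodelers use ATP to slide, eject or space the resulting nucleosomes. SWI/SNF (BAF and PBAF) complexes open chromatin and combine a SMARCA2 or SMARCA4 motor with SMARC and ARID subunits, while ISWI motors space nucleosomes and the CHD proteins include the motors of the NuRD repressor complex. KMT enzymes add methyl groups to histone lysines and KDM enzymes remove them, and in lymphocytes these activities accompany the opening and closing of cytokine and lineage genes.

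The libraries differed in quality as well as in genotype. WT libraries held 21400938 to 24489987 counts and KO libraries 3620002 to 9867580, and genes with any count numbered 10577 to 12744 in WT and 4052 to 7660 in KO. Maf had 1412 to 3832 counts in WT, 108 in KO library 4 and 0 in the other KO libraries (log2 fold change -4.34, adjusted p = 0.141), so 1 library labelled KO held reads of the targeted gene. Markers of ILC2 were all present: 12 of 12 had over 3 counts in every WT library, and 8 of 12 in every KO library. Their summed level was 6791 to 10394 CPM (counts scaled to a library total of 1000000) in WT and 752 to 15101 CPM in KO. The summed level of 8 red blood cell markers was 9.1 to 25 CPM in WT and 120 to 759 CPM in KO libraries other than KO library 1, where it was 190355 CPM, with Alas2 at 0 throughout. T cell markers summed to 17.7 to 129 CPM in WT and 0.661 to 23.5 CPM in KO (Cd8a and Cd8b1 at 0), and markers of macrophages and dendritic cells to 2.91 to 566 and 0 to 6.52 CPM (C1qa at 0). B cell markers reached 6.73 CPM in WT and 188 CPM in 1 KO library (Ms4a1 at 0), granulocyte markers 3.48 and 7.09 CPM (Epx, Mpo and Prg2 at 0), NK cell markers 9.49 and 0 CPM (4 of 5 at 0 in every library), and lung epithelial and endothelial markers 174 and 20 CPM (Cdh5 and Sftpc at 0). The part of depth, of missing transcripts and of other cells in the results below was not tested, except where a value is given. In bulk RNA, fewer cells of a type and less RNA per cell cannot be told apart.

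Of the 55 members, 50 had enough counts to be tested, and 5 of these were lower in KO: Kdm4a, Smarcb1, Smarcd1, Arid3a and Kmt2b. None was higher. The test was edgeR's quasi-likelihood test over 7490 genes, with a Benjamini-Hochberg adjusted p of 0.05 as the threshold. Libraries were scaled by TMM, a factor per library from genes with counts in it and in a reference library. In KO libraries 18 to 45.4% of tested genes had over 3 counts, so their factors rest on a part of the genes. Lower calls made up 27.1% of all tested genes, against 10% of the tested members, and higher calls 1.5%, against 0%. At an unadjusted p under 0.05 there were 6 lower and 0 higher members. The filter on low counts before the test favours genes present in WT, which limits what can be called higher. Without it, 5 of 55 members were lower and 0 higher, and of all 19014 genes 3024 were lower and 2345 higher. With DESeq2 there were 5 lower and 5 higher (Arid2, Chd1, Chd2, Kmt2a and Kmt5b), with limma's voom 10 lower and 0 higher, and with an exact permutation test 7 lower and 1 higher (Chd2). Over all genes, DESeq2 called 2611 lower and 1512 higher of 11211 with an adjusted p. Of 7490 genes, voom called 2487 lower and 71 higher, and the permutation test 2414 lower and 73 higher. The count of lower members was 10 without KO library 3, with Arid4b, Chd1l, Kdm1a, Smarcad1 and Smarcc2 added, and 8 without KO library 4, with Kdm3a, Kdm4d and Smarcd2 added. These runs tested 50 and 51 members. Their lower calls over all genes were 3341 of 8812 and 3350 of 8865. Each member added had its highest KO count in the library left out.

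All 5 members that fell were among those with weak WT transcripts. At under 20 CPM by library size in WT, 2 of 8 members were lower, and 39.9% of all tested genes of that level. At 20 to 50 CPM, 3 of 8 members were lower, and 32.1% of all genes. No member of the 34 at 50 CPM or more was called, where lower calls made up 12.7% of genes at 50 to 100 CPM, 4.17% at 100 to 200 CPM and 0.862% from 200 CPM. Members were stronger in WT than genes at large, with a median of 47.5 TMM-scaled CPM against 16.2, and longer, with a median exon length of 9.16 kb against 5.12 kb. Standard errors of the log2 fold changes ran from 1.13 (Chd2) to 2.47 (Smarcb1), and values from -4.27 (Smarcc2) to 4.16 (Chd1l) missed the threshold, so missing it does not show that a level stayed the same.

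**Figure D1:**
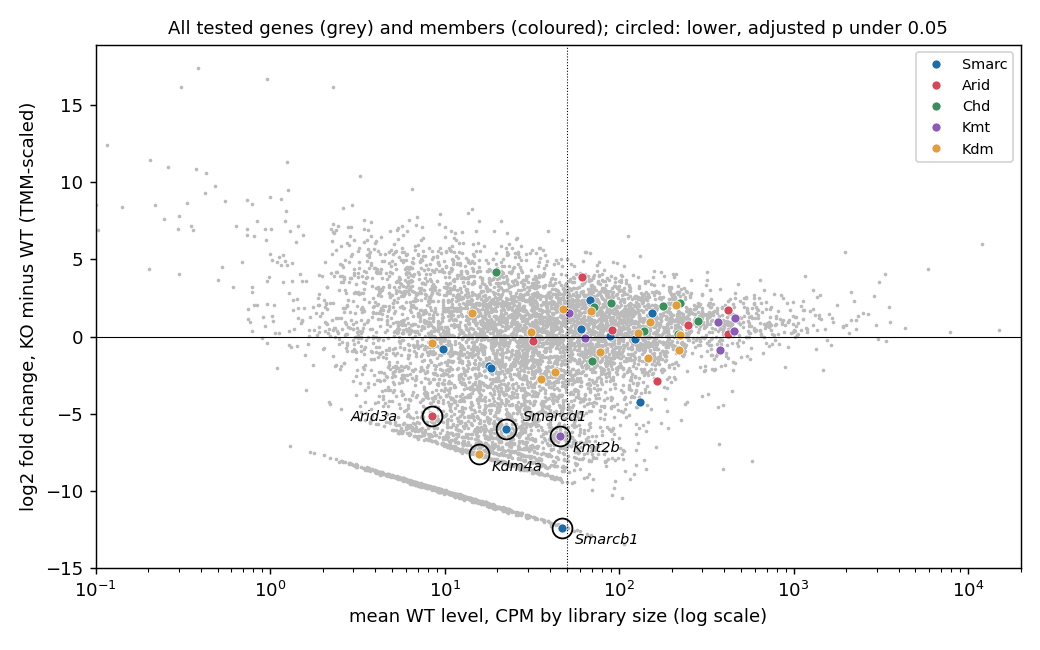
The log2 fold change (KO minus WT, TMM-scaled, vertical axis) of all 7490 tested genes in grey and of the 50 tested members in colour by family, against the mean WT level in CPM by library size (horizontal log axis, with a dotted line at 50 CPM). The 5 circled members passed as lower and all lie to the left of the line; the lowest diagonal band holds genes at 0 in every KO library, Smarcb1 among them, whose fitted value depends on a prior count.

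Which members were present differed from one KO library to the next. A count above 3 was found for 50 to 54 of the 55 members in a WT library, and for 14, 28, 37, 32 and 30 members in KO libraries 1 to 5. Of the tested members these were 28, 56, 72, 64 and 60% in KO. Of all tested genes, 18, 36.4, 45.4, 44.9 and 35% had over 3 counts, fewer in every KO library. With every library thinned to 3620002 counts, the numbers of members were 49 to 53 in WT and 13, 26, 37, 31 and 30 in KO. The thinned shares of all tested genes in KO were 16.8, 33.3, 41.9, 41 and 35%. In total 9 members exceeded 3 counts in all 5 KO libraries (Arid5b, Chd1, Chd2, Chd4, Chd7, Kmt2a, Kmt2e, Kmt5b and Smarca2), which is 18% of the tested members, and 7.06% of all tested genes did so. Another 8 members stayed at 3 counts or fewer in all 5: 4 tested ones (Kdm4a, Kmt2b, Smarcb1 and Smarcd1), 8% of tested members against 22.3% of all tested genes, and the barely detected Arid3b, Chd5, Kdm8 and Smarcd3. Smarcd3 shares 48.2% of its exon bases with genes on the opposite strand, and the strand setting of the counting is not given in the sources used here, so its counts are uncertain.

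Where a member was present in KO, 1 library often held most of its counts. Of the 48 members with over 3 KO counts in total, 1 library held over 50% of the KO counts for 44 and over 90% for 17. That library was KO library 2 for 15 members, 3 for 17, 4 for 9, 5 for 7 and 1 for 0. On the TMM scale, 35 of the 50 tested members stood above every WT library in at least 1 KO library and below every WT library in another. These positions depend on the scaling. Kmt2a had 3 KO libraries above and 2 below every WT library with TMM, and 1 above and 4 below by library size. Smarca2 had 2 above with TMM and 0 by library size. The shares of all tested genes with these patterns were not computed, so whether the counts are particular to the members is not known. Across the 50 tested members, the number of KO libraries with over 3 counts went with the WT level (Spearman rho 0.75, and 0.54 over all 7490 tested genes), with exon length (0.50 and 0.20) and with the span of the gene (0.40 and 0.29). These are descriptions across genes, which share libraries and are not independent.

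**Figure D2:**
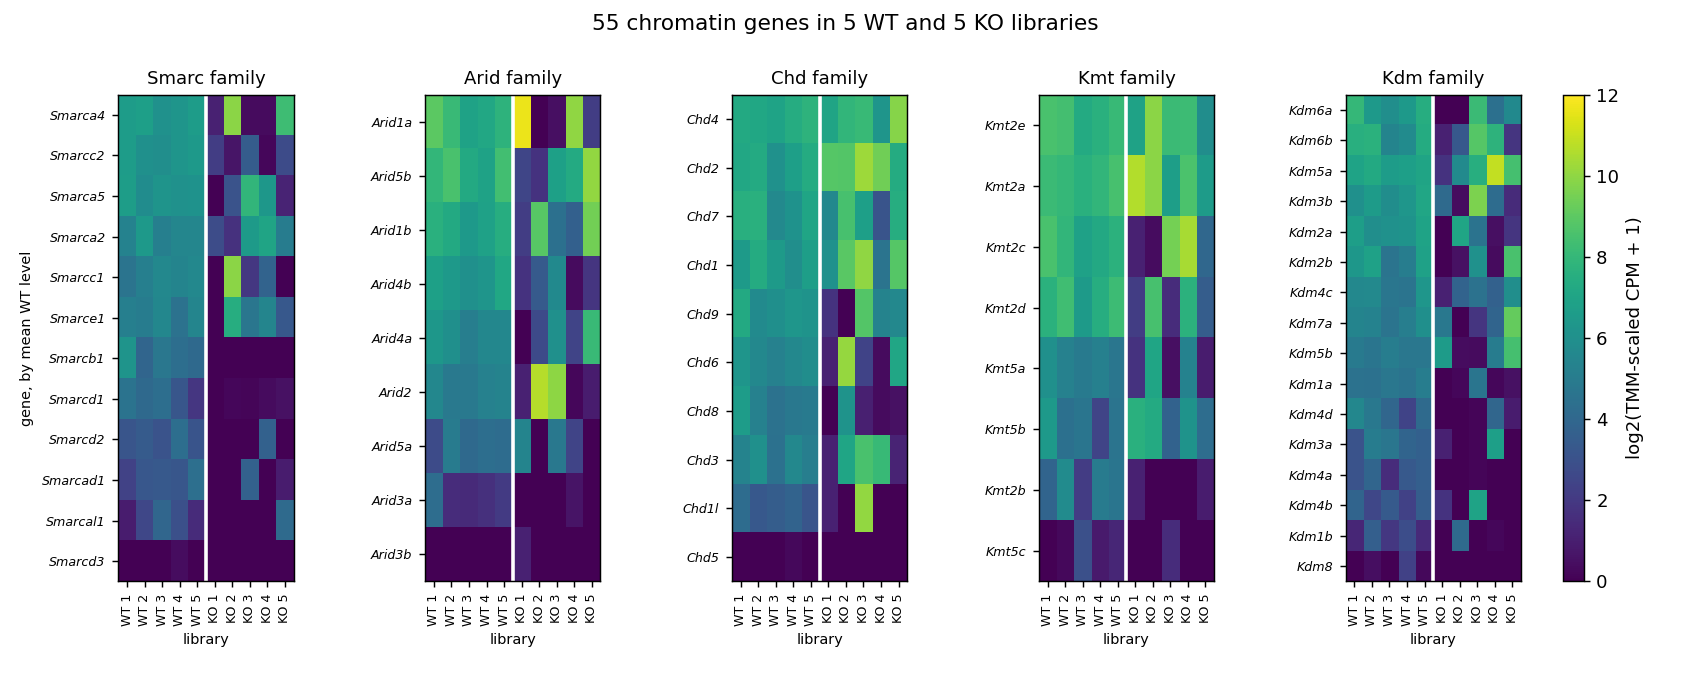
The level of each of the 55 members (rows, by family and mean WT level) in the 10 libraries (columns), as log2(TMM-scaled CPM + 1), from 0 (dark blue) upwards (yellow). In most rows the WT columns are more even than the KO columns, which switch between dark and bright; 48 of the 50 tested members varied more among KO than among WT libraries by coefficient of variation. The share of all tested genes that did so was not computed.

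Beside the levels, the promoters of 3 members that fell and 2 that every KO library retained are shown for the reader to compare. RefSeq promoters (GRCm38.p6) matched 40 of the 55 members, and each sequence covers the 250 bases before a RefSeq transcription start, 5′ to 3′. That start can differ from the gene start in GENCODE, which gave the gene positions below. Capitals mark TGCTGA (the MAF half-site), TGACTCA (the AP-1 core that MAF elements contain), GGGCGG (the GC box) and CCAAT, each searched on both strands.
Smarcb1, lower, chr10:75921615-75921864, minus strand: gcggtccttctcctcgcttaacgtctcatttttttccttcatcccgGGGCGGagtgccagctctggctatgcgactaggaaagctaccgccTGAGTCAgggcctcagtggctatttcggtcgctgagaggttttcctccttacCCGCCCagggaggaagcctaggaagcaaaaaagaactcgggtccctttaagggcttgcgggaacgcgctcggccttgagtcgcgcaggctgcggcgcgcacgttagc
Smarcd1, lower, chr15:99702037-99702286, plus strand: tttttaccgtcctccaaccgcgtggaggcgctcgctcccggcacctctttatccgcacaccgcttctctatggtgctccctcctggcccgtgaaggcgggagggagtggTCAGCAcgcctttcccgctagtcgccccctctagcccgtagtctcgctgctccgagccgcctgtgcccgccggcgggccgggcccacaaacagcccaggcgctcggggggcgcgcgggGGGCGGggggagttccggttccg
Kdm4a, lower, chr4:118180044-118180293, minus strand: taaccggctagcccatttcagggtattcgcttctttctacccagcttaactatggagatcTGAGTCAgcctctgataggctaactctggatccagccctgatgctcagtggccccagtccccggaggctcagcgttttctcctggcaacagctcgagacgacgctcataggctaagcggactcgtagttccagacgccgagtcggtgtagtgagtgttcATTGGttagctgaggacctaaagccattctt
Kmt2a, retained, chr9:44881290-44881539, minus strand: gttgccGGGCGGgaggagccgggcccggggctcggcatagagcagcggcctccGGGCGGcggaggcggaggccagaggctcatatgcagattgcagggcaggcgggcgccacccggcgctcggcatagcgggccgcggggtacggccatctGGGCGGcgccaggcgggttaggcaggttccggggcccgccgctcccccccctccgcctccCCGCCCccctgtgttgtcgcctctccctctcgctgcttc
Chd4, retained, chr6:125095731-125095980, plus strand: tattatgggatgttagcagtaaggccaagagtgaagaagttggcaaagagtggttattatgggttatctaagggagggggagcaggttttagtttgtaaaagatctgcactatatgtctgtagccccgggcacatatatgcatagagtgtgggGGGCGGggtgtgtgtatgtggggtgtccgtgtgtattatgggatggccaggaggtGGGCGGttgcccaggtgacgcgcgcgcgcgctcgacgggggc
Smarcb1 and Kdm4a each hold 1 TGACTCA core, Smarcd1 holds 1 TGCTGA half-site, and these Kmt2a and Chd4 promoters hold neither. The Smarcd1 gene starts at chr15:99702129 in GENCODE, so part of its window, with the half-site, lies inside the gene and not before that start. Of all 7 promoters found for the members that every KO library retained (5 of the 9 genes), 1 holds TGCTGA, that of Arid5b, and 0 hold TGACTCA, so the sets are too small to compare. Of the 55 promoters of the 40 matched members, 5.45% hold TGACTCA and 12.7% TGCTGA, against 4.46% and 16.1% of all 32851 promoters. Member promoters are richer in CG pairs, with a median of 21 against 6 in all promoters, and in GC boxes, at 70.9% against 32.7%, while CCAAT stands in 32.7% and 33.8%. The letters TGACTCA and TGCTGA can overlap within 1 MAF element. A match is a description of these letters and not a measured binding site.

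The SWI/SNF motors did not pass the test. Smarca4 (BRG1), the motor of most BAF complexes in lymphocytes, stood at 97, 108, 67.1, 76 and 97.5 CPM in WT libraries 1 to 5 (TMM-scaled, as are all levels from here on) and at 1.18, 955, 0.274, 0.285 and 307 CPM in KO libraries 1 to 5. It was far above WT in KO libraries 2 and 5 and near 0 in the other 3, and its log2 fold change was 1.50 (SE 1.76, adjusted p = 0.593). By library size KO library 2 alone was above every WT library, and the log2 fold change was 0.26. Smarca2 (BRM), the alternative motor, stood at 38.4, 90.3, 35.2, 44.4 and 44.7 CPM in WT and at 5.88, 2.25, 92.8, 129 and 31.5 CPM in KO. Its counts exceeded 3 in every KO library, the highest in KO libraries 3 and 4, where Smarca4 was near 0 (log2 fold change 0.05, SE 1.43, adjusted p = 0.986).

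Of the SMARC subunits, 2 fell. Smarcb1 (SNF5, ENSMUSG00000000902, GRCm38 chr10:75896769-75921617, minus strand, protein coding), a core subunit whose loss drives rhabdoid tumours, had 2533, 629, 858, 858 and 705 counts in WT libraries 1 to 5 and 0 in every KO library. Its WT mean was 29.5 ± 24.5 CPM (SD, n = 5). Summed over the libraries of each group and divided by their summed TMM-scaled sizes, its counts were at least 222-fold lower in KO, with the floor set at 3 counts over all of KO (0.124 CPM), and at least 147-fold lower without WT library 1. WT library 1 was the highest, the groups did not overlap, and the adjusted p was 0.00182. Smarcd1 (BAF60A, ENSMUSG00000023018, GRCm38 chr15:99702129-99713991, plus strand, protein coding), a subunit that links the complex to transcription factors, had 801, 717, 638, 369 and 122 counts in WT and 0, 1, 1, 2 and 1 in KO. The ratio of WT to KO, from summed counts in the same way as are the ratios below, was 63.2 (95% counting interval 27 to 195), with a log2 fold change of -5.97 (SE 1.31, adjusted p = 0.002). Genes on the opposite strand share 12.7% of its exon bases.

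Other SMARC subunits were variable or missing without passing. Smarcc2 (BAF170), a scaffold subunit, stood at 97.1, 65, 60.7, 75.1 and 89.4 CPM in WT and at 3.53, 0.6, 10.1, 0.143 and 5.7 CPM in KO. Each KO library was below every WT library, yet the log2 fold change of -4.27 (SE 1.62) had an adjusted p of 0.0591. It passed with DESeq2 (0.0167), voom (0.00767), library size alone (0.0207), the exact permutation test (0.0268) and without KO library 3 (0.0396). Its partner scaffold Smarcc1 (BAF155) stood at 23.6 to 47.4 CPM in WT, and KO library 2 held 98.3% of its KO counts. Smarce1 (BAF57), a DNA-binding subunit, had over 3 counts in 4 KO libraries, while Smarcd2, which neutrophil development needs, had them in KO library 4 alone (12.1 CPM, within the WT range of 7.33 to 19.5 CPM). Over the 7 SMARC subunits, 24 of 35 subunit and library pairs in KO had at most 3 counts (68.6%), against 48.7% of the 275 pairs over all members. The 7 include Smarcd3, which was not tested and had 14 counts, all in WT library 4. In KO libraries 1 to 5, 0, 3, 3, 3 and 2 of the 7 subunits exceeded 3 counts. Over all tested genes, 18, 36.4, 45.4, 44.9 and 35% did so. The 55 members are a high reference, since 25.5, 50.9, 67.3, 58.2 and 54.5% of them did so. The median log2 fold change of the 6 tested subunits was -3.16, against -0.47 for all tested genes, and -4.45 with library size alone, where all tested genes had -1.77.

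The ARID subunits of SWI/SNF did not pass in the test used here. Arid1a, which targets BAF to DNA, was the third strongest member per kb of exon in WT at 21.9 ± 13.2 CPM per kb (SD, n = 5). It stood at 498, 280, 119, 145 and 214 CPM in WT and at 3162, 0, 0.411, 1036 and 3.5 CPM in KO. KO libraries 1 and 4 were above every WT library and the other 3 were nearly empty (log2 fold change 1.74, SE 1.82, adjusted p = 0.541). By library size KO library 4 alone was above every WT library, and the log2 fold change was -0.67. Arid1b, its alternative, stood at 198, 153, 88.5, 115 and 176 CPM in WT and at 3.53, 472, 20.8, 12 and 702 CPM in KO. KO libraries 2 and 5 were above every WT library for Arid1b and the other 3 below, and in KO library 3 both genes were low (adjusted p = 0.766). Arid2, the PBAF subunit, stood at 46.6, 27.7, 28.1, 37.3 and 39.9 CPM in WT and at 1.18, 1638, 992, 0.143 and 0.876 CPM in KO. Its log2 fold change of 3.87 (SE 1.92, adjusted p = 0.161) came from KO libraries 2 and 3, and with voom it was -2.25. It passed as higher with DESeq2 (4.21, adjusted p = 0.0328) and without KO libraries 1 and 5 (4.57, adjusted p = 0.0303).

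ISWI and the remaining SNF2 motors did not pass. Smarca5 (SNF2H), the ISWI motor, stood at 56.8 to 101 CPM in WT and at 0, 7.35, 235, 81.3 and 1.31 CPM in KO (log2 fold change -0.17, adjusted p = 0.958). Smarcad1, a remodeler that helps restore silent chromatin after replication, stood at 10.1 ± 6.02 CPM in WT and had over 3 counts only in KO library 3. Smarcal1, which rewinds stalled replication forks, stood at 5.76 ± 5.51 CPM in WT and had over 3 counts only in KO library 5. Without those libraries both passed as lower, with adjusted p = 0.015 for Smarcad1 and 0.00548 for Smarcal1. The library left out was in each case the only one in KO with over 3 counts. These calls were thus close to fixed in advance and do not show a loss.

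Among ARID proteins outside SWI/SNF, Arid3a fell. Arid3a (ENSMUSG00000019564, GRCm38 chr10:79927043-79955018, plus strand, protein coding), a factor first studied in B cells, had 638, 82, 56, 100 and 135 counts in WT and 0, 0, 0, 4 and 0 in KO. WT library 1 stood apart at 18.3 CPM and the other WT libraries lay at 1.68 to 3.07 CPM. The ratio of WT to KO was 30.2 (95% counting interval 11.7 to 111), the log2 fold change -5.13 (SE 1.38) and the adjusted p 0.0077. Without WT library 1 the ratio was 13.5 and the log2 fold change -3.83 (adjusted p = 0.00991). Without KO library 4 every KO library was at 0, and the level was at least 28.5-fold lower. The call did not hold without KO libraries 1 and 5 together (log2 fold change -4.85, adjusted p = 0.0532). Arid5b, a partner of the demethylase PHF2, was the second strongest member per kb in WT at 24.2 ± 10.9 CPM per kb (SD, n = 5). It stood at 242, 371, 153, 119 and 332 CPM in WT and at 4.71, 2.4, 111, 160 and 1078 CPM in KO, above WT in KO library 5 and below in 3 (log2 fold change 0.16, SE 1.43, adjusted p = 0.955). Scaled by library size, 4 KO libraries were below every WT library, and the log2 fold change was -1.13.

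Arid4b and Arid4a, RB-binding subunits of the SIN3 repressor complex, differed in pattern. Arid4b stood at 64 to 143 CPM in WT and at 2.35, 9.6, 50.4, 0.285 and 2.63 CPM in KO, below every WT library in each (log2 fold change -2.87, SE 1.59, adjusted p = 0.216). In all 7 tested members, the 5 that fell with Smarcc2 and Arid4b, had every KO library below every WT library, which is 14% against 28.9% of all tested genes. Arid4a was at 33.6 to 81.4 CPM in WT and at 0 to 282 CPM in KO. Arid5a, which stabilises cytokine messages such as that of IL-6, was at 5.79 to 31.1 CPM in WT and at 41.2, 0, 27.4, 4.56 and 0 CPM in KO (adjusted p = 0.916).

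In the CHD family none of the 9 tested members passed, and Chd1, Chd2, Chd4 and Chd7 exceeded 3 counts in every KO library. Chd2, a remodeler that deposits the histone variant H3.3 at active genes, stood at 144, 158, 65.7, 109 and 164 CPM in WT and at 458, 438, 1201, 665 and 165 CPM in KO. It was the only member above every WT library in all 5 KO libraries, by a narrow margin in KO library 5. Its log2 fold change was 2.19 (SE 1.13, adjusted p = 0.178), and it passed as higher with DESeq2 (adjusted p = 0.00286), without KO libraries 1 and 5 (0.0233) and in the exact permutation test (0.0268). This separation depends on the scaling: by library size alone Chd2 stood at 102 to 308 CPM in WT and at 81.8, 322, 1013, 473 and 104 CPM in KO, 3 of 5 above every WT library, with a log2 fold change of 0.92 (adjusted p = 0.642). The gene 1810026B05Rik on the same strand shares 18.4% of the Chd2 exon bases, so the counts of Chd2 are uncertain.

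Chd1, a motor that spaces nucleosomes behind RNA polymerase II, stood at 93.2, 164, 92, 60.7 and 105 CPM in WT and at 65.9, 479, 1038, 23.7 and 449 CPM in KO (a log2 fold change of 2.00, SE 1.28, adjusted p = 0.295). KO libraries 2, 3 and 5 were above every WT library and KO library 4 below. Scaled by library size, KO libraries 2 and 3 were above every WT library, and the log2 fold change was 0.89. Chd4 (Mi-2β), the main NuRD motor in lymphocytes, stood at 156, 143, 125, 173 and 216 CPM in WT and at 128, 240, 268, 75.1 and 909 CPM in KO. No single KO library held more than 33.1% of its KO counts, the lowest share of any member (log2 fold change 0.99, SE 1.18, adjusted p = 0.598; -0.32 by library size alone). Chd3, the other NuRD motor detected, was at 21.4 to 63.6 CPM in WT and at 1.18, 134, 369, 270 and 1.31 CPM in KO, and the neuronal Chd5 had 9 counts, all in WT library 4.

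Chd7, mutated in CHARGE syndrome, had over 3 counts in every KO library. It stood at 187, 198, 49.7, 67.4 and 134 CPM in WT and at 47.1, 362, 107, 7.56 and 179 CPM in KO, so the ranges overlapped (log2 fold change 0.14, SE 1.33, adjusted p = 0.956). Its relatives Chd6, Chd8 and Chd9 each rested on 1 KO library, with 95.4%, 97.7% and 89.1% of their KO counts in KO libraries 2, 2 and 3. Chd1l (ALC1), a remodeler of DNA repair that PARP activates, stood at 18.2, 8.76, 10.6, 13.2 and 7.83 CPM in WT and at 1.18, 0, 1047, 0 and 0 CPM in KO. KO library 3 alone set its log2 fold change of 4.16 (SE 2.39, adjusted p = 0.237): without it the value was -6.58 and passed as lower (adjusted p = 0.0109). That call was close to fixed in advance, since every other KO library held at most 1 count.

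**Figure D3:**
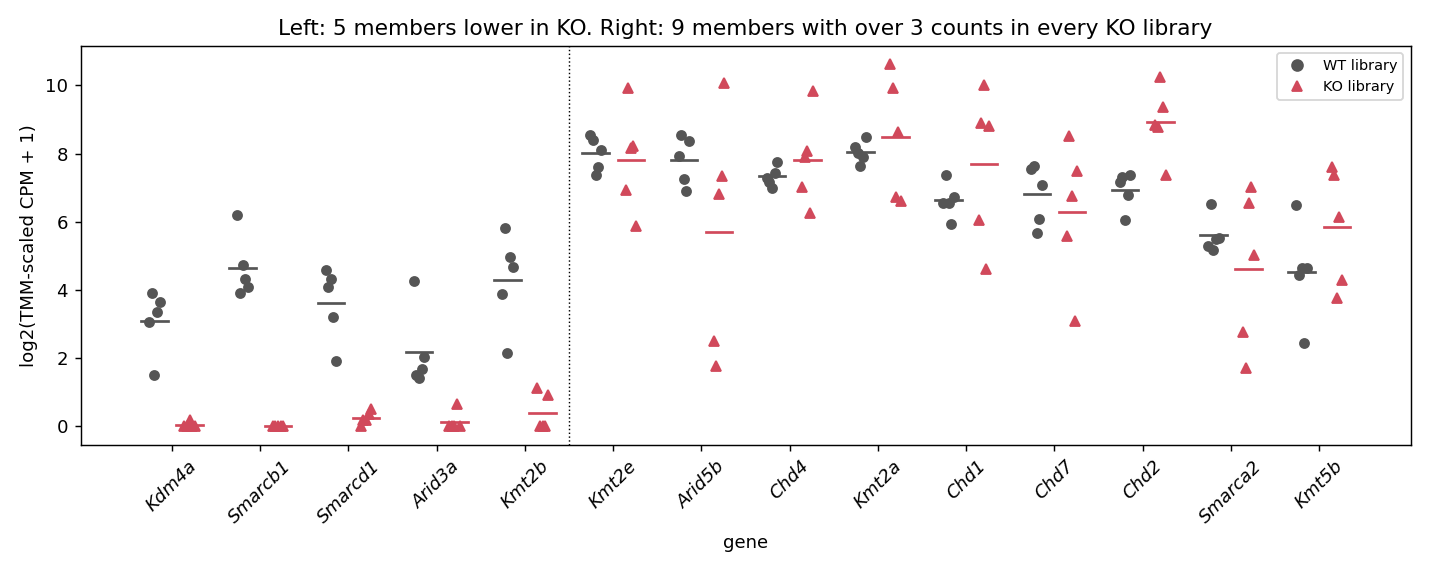
Levels as log2(TMM-scaled CPM + 1) in each WT library (grey circles) and KO library (red triangles), with the group mean as a bar, for the 5 members lower in KO (left of the dotted line) and the 9 with over 3 counts in every KO library (right). On the left every triangle lies below every circle; on the right the triangles spread above and below the circles, except for Chd2, where all 5 lie above, and Kmt5b, where none lies below every circle.

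Of the KMT2 enzymes, which methylate lysine 4 of histone H3, only Kmt2b fell in the test used here. Kmt2b (MLL2, ENSMUSG00000006307, GRCm38 chr7:30568858-30588726, minus strand, protein coding), which acts at CpG-rich promoters, had 477, 2458, 115, 1384 and 1076 counts in WT and 1, 0, 0, 0 and 2 in KO. It stood at 25.4 ± 19.5 CPM in WT and at 0.411 ± 0.572 CPM in KO (SD, n = 5 each). The ratio of summed counts was 219 (95% counting interval 75 to 1063) and the fitted log2 fold change -6.42 (SE 1.91, adjusted p = 0.0149), which became -7.04 to -5.60 without KO library 1, 2, 3 or 4 and -7.78 without KO library 5. With RLE size factors in place of TMM it did not pass (-5.15, adjusted p = 0.0676). Its closest relative Kmt2a (MLL1), known for its fusions in leukaemia, had over 3 counts in every KO library. Kmt2a stood at 289, 257, 197, 239 and 358 CPM in WT and at 1578, 968, 105, 392 and 95.9 CPM in KO, 3 libraries above and 2 below every WT library (log2 fold change 1.23, SE 1.14, adjusted p = 0.488; -0.68 by library size alone).

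Kmt2c and Kmt2d, the enhancer enzymes of the family, were near each other in WT at 218 ± 100 and 216 ± 92 CPM (SD, n = 5 each). In KO, Kmt2c stood at 1.18, 0.3, 723, 1376 and 15.3 CPM and Kmt2d at 3.53, 363, 1.92, 211 and 10.5 CPM. The libraries that held one did not always hold the other, and neither passed (adjusted p = 0.72 and 0.725). Kmt2e (MLL5), which reads but is not thought to write this mark, was the strongest member per kb in WT at 25.7 ± 8.65 CPM per kb. It stood at 375, 337, 163, 194 and 274 CPM in WT and at 120, 969, 287, 295 and 57.8 CPM in KO, with groups that overlap (log2 fold change 0.36, SE 1.15, adjusted p = 0.858). Its exons share 9.3% of their bases with Srpk2 on the opposite strand.

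The KMT5 enzymes methylate lysine 20 of histone H4. Kmt5b, which adds the later methyl groups, stood at 88.8, 20.8, 24, 4.42 and 23.8 CPM in WT and at 195, 163, 12.7, 70.1 and 18.8 CPM in KO, so it was present in every KO library and no KO library was below every WT library (log2 fold change 1.51, SE 1.45, adjusted p = 0.508). Kmt5a, which adds the first, was at 25.2 to 64.2 CPM in WT and had over 3 counts only in KO libraries 2 and 4. Kmt5c was too weak to test.

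Among demethylases, Kdm4a fell and the other 14 tested did not pass. Kdm4a (ENSMUSG00000033326, GRCm38 chr4:118136957-118180043, minus strand, protein coding), which demethylates lysines 9 and 36 of histone H3, had 259, 631, 61, 414 and 511 counts in WT and 0, 0, 1, 0 and 0 in KO. Its WT level was 8.83 ± 4.66 CPM (SD, n = 5), the WT to KO ratio 224 (95% counting interval 40.1 to 8847), the log2 fold change -7.63 (SE 1.44) and the adjusted p 0.00163. Without KO library 3, which held the single KO count, the level was at least 52-fold lower. Its relatives had other patterns. Kdm4d stood at 46.2, 26.6, 14.4, 4.34 and 16.7 CPM in WT and at 0, 0, 0.137, 14.8 and 0.876 CPM in KO (adjusted p = 0.258). It passed without KO library 4 (adjusted p = 0.0108). That was the only KO library with over 3 counts, so the call was close to fixed in advance. KO library 3 held 99.8% of the KO counts of Kdm4b, and Kdm4c had over 3 counts in 4 KO libraries, at 12.3 to 60.9 CPM, against 23.5 to 76.9 CPM in WT.

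KDM6 enzymes remove methyl groups from lysine 27 of histone H3, a mark of silenced lineage genes. Kdm6b (JMJD3), the inducible enzyme, was the fifth strongest member per kb in WT and stood at 187, 203, 41.3, 55.1 and 164 CPM, against 1.18, 9, 457, 218 and 2.63 CPM in KO. KO libraries 3 and 4 were above every WT library and the other 3 below (log2 fold change 0.08, SE 1.55, adjusted p = 0.98). By library size KO library 3 alone was above every WT library, and the log2 fold change was -0.93. Kdm6a (UTX), encoded on the X chromosome (GRCm38 chrX:18162575-18279936, plus strand), stood at 250, 85.8, 60, 86.6 and 176 CPM in WT and at 0, 0, 293, 20.7 and 50.4 CPM in KO (a log2 fold change of -0.85, SE 1.74, adjusted p = 0.775). Kdm6a escapes X inactivation, so its level can depend on sex. The Y-linked genes Ddx3y, Eif2s3y and Uty, looked up after the values were seen, summed to 2 counts in each WT library and to 11, 0, 1825, 1857 and 100 counts in KO libraries 1 to 5, and the part of sex was not tested.

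The KDM5 enzymes, which erase methylation of lysine 4 of histone H3, were steady in WT. Kdm5b had the lowest coefficient of variation of any tested member (11.7%), at 24.5 to 32.5 CPM, and stood at 94.1, 0.3, 0.274, 31.7 and 350 CPM in KO (adjusted p = 0.502). Kdm5a stood at 97.1 to 155 CPM in WT and at 2.35, 53, 184, 1890 and 351 CPM in KO (adjusted p = 0.339). Kdm1a (LSD1), the amine oxidase that erases the same mark with the CoREST complex, stood at 21.4 to 32.9 CPM in WT and at 24.1 CPM in KO library 3, with at most 1 count in each other KO library. Without KO library 3 it passed as lower (adjusted p = 0.00564), a call close to fixed in advance by the choice of that library. Its paralogue Kdm1b had over 3 counts in KO library 2 alone.

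The KDM2 and KDM3 demethylases did not pass either. Kdm2a, a CpG island protein, was at 59.9 to 122 CPM in WT and at 0, 134, 22.9, 0.428 and 2.63 CPM in KO, and Kdm2b, which recruits a Polycomb complex, at 23.7 to 117 CPM in WT and 0, 0.45, 65.2, 0.285 and 376 CPM in KO. Kdm3b was at 57.5 to 135 CPM in WT, with 97.5% of its KO counts in KO library 3, and Kdm3a at 7.28 to 32.4 CPM, with 99.7% in KO library 4. Genes on the opposite strand share 24.6% of the exon bases of Kdm3b. Kdm7a was at 23.3 to 61.5 CPM in WT and at 27.1, 0, 2.6, 13.8 and 574 CPM in KO, and Kdm8 was too weak to test.

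**Figure D4:**
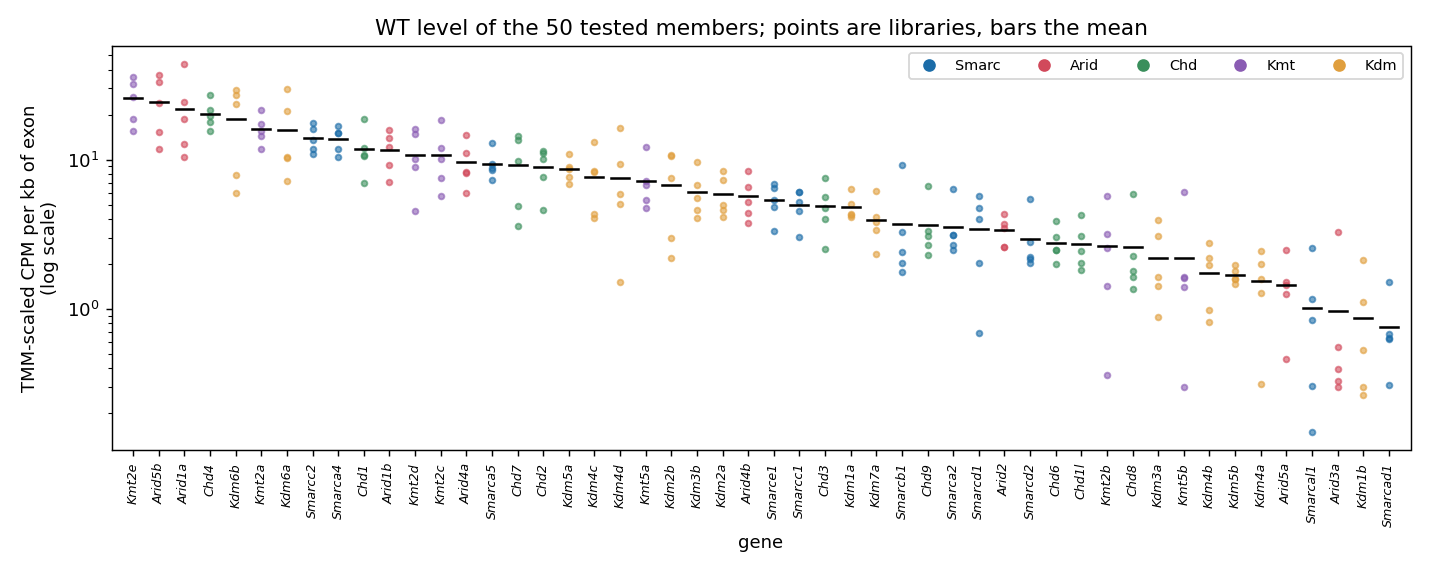
Level in TMM-scaled CPM per kb of exon (log axis) of the 50 tested members in the 5 WT libraries (points, coloured by family), ordered by the mean (bars). Kmt2e, Arid5b, Arid1a, Chd4 and Kdm6b lead, and neighbours in the order overlap in their libraries, while Smarcad1 and Kdm1b end the row.

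Per kb of exon, WT levels of the tested members ran from 0.755 ± 0.452 CPM per kb for Smarcad1 to 25.7 ± 8.65 CPM per kb for Kmt2e (SD, n = 5). Chd4 stood at 20.3 ± 4.29, Kdm6b at 18.7 ± 10.9, Kmt2a at 16.1 ± 3.62 and Kdm6a at 15.7 ± 9.49 CPM per kb, and these neighbours did not differ beyond their spread. Together the members took 0.394 to 0.85% of the counts in WT libraries and 0.107, 0.725, 0.779, 0.518 and 0.397% in KO libraries 1 to 5. On the TMM scale their summed level was 2533 to 5103 CPM in WT and 5979 to 9875 CPM in KO, so the order of the groups depends on the scaling. The 5 strongest members took 29.9 to 35% of member counts in WT, and 92.3, 57, 54.8, 73.5 and 58.9% in KO libraries 1 to 5.

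By family, the median log2 fold change of tested members was -0.80 for Smarc, 0.28 for Arid, 1.91 for Chd, 0.36 for Kmt and 0.08 for Kdm, against -0.47 for all tested genes. With library size alone the medians were -2.11, -0.96, 0.82, -0.87 and -1, against -1.77, and with RLE they were 0.13, 1.39, 2.20, 1.02 and 0.38, against 0.09. The sign thus depends on the scaling for Smarc, Arid, Kmt and Kdm. The Smarc family had 2 lower members of 11 tested, Arid 1 of 8, Chd 0 of 9, Kmt 1 of 7 and Kdm 1 of 15. These differences between families were not tested.

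Partner subunits of the same complexes were read off the same fit. Of 110 genes in 8 lists, 80 were tested, 20 were lower (25%, against 27.1% of all tested genes), 2 were higher and the median log2 fold change was 0.02. Of the 12 NuRD partners tested, 5 were lower, among them Mbd3, which holds the complex together (1557 WT counts and 1 KO count, adjusted p = 0.00163), and the deacetylase Hdac2 (2867 and 3 counts, adjusted p = 0.00239). The other 7 did not pass. The NuRD motor Chd4, which every KO library retained, was much stronger in WT, with a mean of 163 CPM. The WT means of Mbd3 and Hdac2 were 7.35 and 13.9 CPM. Of 12 COMPASS partners, which build the KMT2 complexes, 3 were lower, with Men1 (1106 WT counts) and the scaffold Wdr5 (769 WT counts) at 0 in every KO library (adjusted p = 0.00163 each). Of 12 INO80, SRCAP and EP400 subunits 4 were lower, led by the motor Srcap (1274 and 0 counts, adjusted p = 0.00163) and Znhit1 (948 and 0 counts, adjusted p = 0.0018).

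The remaining lists held 1 or 2 lower genes each, and no difference between lists was tested. Of 11 further SWI/SNF subunits 2 were lower, Bcl7c (1067 and 0 counts, adjusted p = 0.00163) and Dpf2, a histone reader of BAF (3326 and 2 counts, adjusted p = 0.0019), and of 7 ISWI partners 1, Chrac1 (2279 and 0 counts, adjusted p = 0.00196). Of 8 PRC2 subunits, which methylate lysine 27 of histone H3, 2 were lower, Ezh1 (3453 and 1 counts, adjusted p = 0.00163) and Phf1 (2675 and 7 counts, adjusted p = 0.0333). Jarid2, which recruits PRC2, passed as higher (log2 fold change 2.64, SE 0.90, adjusted p = 0.0344), at 742 to 2497 CPM in WT and at 37959, 3925, 4326, 3909 and 1517 CPM in KO. KO library 1 set the size of this difference: without it the log2 fold change was 1.07 (adjusted p = 0.141). The call was also lost with library size alone (0.28, adjusted p = 0.82), voom (0.0974), the exact permutation test (0.0996), no filter (0.163), thinning (0.0613), without KO libraries 1 and 5 (0.0501), and without any single WT library (0.0626 to 0.09). Setdb2 was the only lower gene of 10 methyltransferases for lysines 9, 36 and 79 of histone H3 (adjusted p = 0.0324), and Hmg20b and Phf8 of 8 other demethylases and KDM1 partners (adjusted p = 0.00178 and 0.022). Ino80e passed as higher (adjusted p = 0.0142) with 12777 KO counts, 10650 of them in KO library 1, and without that library its adjusted p was 0.111. It also missed the threshold with library size alone (0.052), voom (0.431) and the exact permutation test (0.585), and without KO libraries 1 and 5 (0.0716). Jarid2 and Ino80e were named after their values were seen.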

How the data were processed

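Total RNA of sorted lung ILC2 was made into strand-specific libraries, per the labels' protocols. The authors deposited whole-number read counts per gene, 1 column per library, not normalized; STAR 2.6.0c, SAMtools 1.8, HTSeq 0.9.1 and GRCm38 are named in the submitters' processing notes, while the sources used here do not give the annotation release, strand setting or filters. Groups came from the genotype in the labels. Libraries were numbered in order of deposit, which pairs nothing. Whether each library came from its own mouse is not in the labels; p-values then rest on the spread between libraries, which may be technical.

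All 55 members matched GENCODE M21 (GRCm38), which gave positions and exon lengths. edgeR 4.0.16 (R 4.3.3) kept 7490 genes by filterByExpr (minimum count 10, smallest group of 5 libraries, which favours genes present in WT), scaled by TMM (factors 1.462 to 1.908 in WT, 0.1803 to 0.9276 in KO) and ran the quasi-likelihood test with Benjamini-Hochberg adjustment over all genes kept. The standard error is the log2 fold change over the square root of F. Levels are TMM-scaled CPM unless library size is named. The floor is 3 counts; intervals are exact 95% intervals of a count ratio and cover counting error only, since reads carry no molecular identifiers.

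Alternatives were DESeq2 1.42.0, voom (limma 3.58.1), scaling by RLE or by library size only, a two-sided exact permutation test of log2(CPM + 1) over 252 splits (smallest p 0.00794), no filter, a minimum of 50 counts, a robust fit, no globin or mitochondrial genes, thinning, no KO libraries 1 and 5, and leaving out each library. The procedure was tested on simulated counts drawn around WT means with a common spread. Most tested members varied more among KO than among WT libraries, so that run cannot show how the tests behave on these data. Per-library values were given by rule: in each family the 2 highest WT levels per kb and the 2 smallest p; members with over 3 counts in all KO libraries; members called higher; up to 2 passed genes per partner list. Other members named with values were chosen after these were seen. Members, lists and tests were chosen with earlier results of these data known.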

Additional observations from a re-analysis of the deposited data

Results flagged for a closer look

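Among the members given library by library, 6 of the groups of 5 libraries held 1 library far from the other 4 on the log2(CPM + 1) scale. The cutoff was a gap to the nearest over the group's range above 0.71. Chance gives this in about 1 of 20 groups of independent normal values. That rate does not hold here: the groups share libraries, and with 4 libraries at 0 the ratio is always 1, as for Arid3a and Kdm4a in KO. Of the 43 groups examined, the 6 were 2 WT and 4 KO groups. The WT groups were Arid3a in WT library 1, at 18.3 CPM with the next library at 3.07 CPM, and Smarca2 in WT library 2, at 90.3 CPM with the next at 44.7 CPM. In the KO groups, Chd1l stood at 1047 CPM in KO library 3 and next at 1.18 CPM, Kdm4d at 14.8 CPM in KO library 4 and next at 0.876 CPM, Arid3a at 0.57 CPM in KO library 4 with 0 in the others, and Kdm4a at 0.137 CPM in KO library 3, which is 1 count, with 0 in the others.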

How the results depend on the processing

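The lower calls of Smarcb1 and Smarcd1 held in every alternative run, and that of Kdm4a in every one that tested it, with adjusted p up to 0.0268. Kmt2b was lost with RLE size factors (-5.15, 0.0676) and Arid3a without KO libraries 1 and 5 (-4.85, 0.0532); Arid3a was not tested with a minimum of 50 counts or thinned, and DESeq2 gave it no adjusted p. Lower members numbered 10 with voom and 3 with a minimum of 50 counts, and 5 to 10 leaving out single libraries; higher members numbered 5 with DESeq2, 1 by permutation, 2 without KO libraries 1 and 5, and 0 without any single library. Over all genes, higher calls were 1512 with DESeq2, 193 with RLE, 73 by permutation, 49 with library size alone, 71 with voom, 50 with a minimum of 50 counts, 2345 without a filter, 52 thinned and 348 without KO libraries 1 and 5 (82 to 333 leaving out single libraries), against 112. Lower calls were 1173 with a minimum of 50 counts, 1272 thinned and 3291 without KO libraries 1 and 5 (1734 to 3350), against 2027. Lower calls were 63.3% of all calls with DESeq2, 56.3% without a filter, 90.4% with RLE and 97.9% with library size alone, against 94.8%. Of the partner genes, 31 were lower without KO libraries 1 and 5 (17 to 32 leaving out single libraries), and higher ones were 0 by permutation, voom and library size alone, and 1 thinned (1 to 4). Library size alone moved the median of all tested genes by -1.30, RLE by 0.56 and voom by -3.11.

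Of the 45 uncalled members, 32 changed sign under at least 1 alternative: 24 by permutation, 22 with voom, 17 with library size alone, 8 without KO libraries 1 and 5, 7 without a filter, 4 with RLE, 4 with DESeq2, 2 thinned, and 1 to 8 leaving out single libraries. Values follow for those the rule named. With library size alone: Arid1a -0.67, Arid5b -1.13, Chd4 -0.32, Chd7 -1.11, Kdm6b -0.93, Kmt2a -0.68, Kmt2e -0.87, Kmt5b -0.15 and Smarca2 -1.12. By permutation: Arid1a -2.93, Arid2 -0.61, Arid5b -2.10, Chd1l -1.38, Chd7 -0.52, Kdm6b -2.18, Kmt2e -0.19, Smarca2 -0.98 and Smarca4 -2.47. With voom: Arid1a -2.25, Arid2 -2.25, Arid5b -2.42, Chd1l -3.35, Chd7 -0.60, Kdm6b -3.16, Smarca2 -1.42 and Smarca4 -3.24. Without a filter: Arid5b -0.19, Chd7 -0.21, Kdm6b -0.28 and Smarca2 -0.30. Thinned: Kdm6b -0.05 and Smarca2 -0.08. Without KO libraries 1 and 5: Arid5b -1.47. Leaving out single libraries gave Arid5b -1.80 to 0.80, Chd1l -6.58 to 4.48, Chd7 -0.29 to 0.59, Kdm6b -1.18 to 0.40, Kmt2e -0.39 to 0.68 and Smarca2 -0.49 to 0.39. The permutation value is a difference of mean log2(CPM + 1), and voom averages log levels, while the main fit models counts. Their values are thus unlike measures. All 24 permutation and all 22 voom changes ran from positive to negative. The causes were not tested. No paired analysis was possible because the labels give the groups no shared replicate numbers. At this spread (median standard error 1.60), most members could not be resolved.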
